A study of Mus musculus with 6 samples.

Results

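The 9 genes described here encode the core proteins of the brain extracellular matrix and of perineuronal nets. They were taken by symbol from the gene table of the series, which lists 21006 genes, and all 9 passed the filter on low values that 18185 genes passed. They are the lecticans Acan, Bcan, Ncan and Vcan, the link proteins Hapln1, Hapln2 and Hapln4, and the tenascins Tnr and Tnc. The measurement was RNA sequencing of the prefrontal cortex of male wild-type C57BL/6 mice, 18 months old per the age label, with 3 mice in each of 2 groups. The sample titles carry a lower number before the letter M, and the age label was used. Mice labelled PND, which model postoperative neurocognitive disorder, received 1.5% isoflurane for 30 min and then an exploratory laparotomy, an opening and inspection of the abdomen, which lasted another 30 min under isoflurane. Lidocaine cream and povidone iodine were put on the incision. The CON group received neither anesthesia nor operation, so that the anesthetic, the surgery and the care of the incision cannot be told apart. Per the methods of the study, tissue was taken after the behavioural tests, and mice of both groups were put under deep isoflurane anesthesia and perfused with saline when the tissue was taken. Each sample came from 1 mouse.

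Perineuronal nets are lattices of matrix around the cell body and proximal dendrites of certain neurons, above all the parvalbumin interneurons of cortex. In these lattices lecticans, which are chondroitin sulfate proteoglycans, bind the sugar polymer hyaluronan, link proteins lock that binding, and tenascin-R crosslinks the far ends of the lecticans. Looser forms of the same matrix fill the space between cells, and a specialised form that holds Hapln2 and versican surrounds the nodes of Ranvier, the gaps in the myelin of axons.

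The values were FPKM, which is fragments scaled for transcript length and sequencing depth. Levels were compared between genes on this scale, which does not correct for the GC content of transcripts. The spacing of the low values gave an effective depth of 7180000 to 9384000 fragments per sample, with the PND samples at 7888000 to 9384000 and the CON samples at 7180000 to 8140000. Between 30.4% and 38.8% of all FPKM came from 13 mitochondrial genes. The tissue label was checked against excitatory cortical neuron markers, which were present in every sample (Slc17a7, a glutamate transporter, at 23.6 to 73.8 FPKM), with summed levels of 232 to 300.3 FPKM in PND and 210 to 407 FPKM in CON. Striatal markers were also present, with sums of 211 to 263 FPKM in PND and 136 to 347 FPKM in CON. The CON replicate 2 sample had both the highest excitatory sum and the lowest striatal sum, and the part of these differences between samples in the results was not tested.

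In these samples 1 of the 9 genes, Hapln2, was higher in PND than in CON, by 1.78-fold with a 95% confidence interval of 1.20 to 2.63, at an unadjusted p of 0.010 from limma. Its adjusted p over all genes was 0.9999. The other 8 genes did not pass, with fold changes between 0.754 for Tnc and 1.12 for Hapln4. An unadjusted p below 0.05 in either direction was reached by 3.13% of all genes tested, with 1.73% higher and 1.4% lower in PND. The cut-off used in the study, a log2 fold change beyond 1 in either direction with an unadjusted p below 0.05, was passed by 1.33% of all genes and by 0 of the 9. An adjusted p below 0.05 was reached by 0.011% of all genes and by 0 of the 9. At an unadjusted p below 0.05, limma called 1 of the 9. The groups did not overlap in 7.66% of all genes and in 1 of the 9, again Hapln2. The median log2 fold change was 0.04 over the 9 genes and 0.01 over all genes tested, and 6 of the 9 lay above 0 compared with 52.4% of all genes.

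**Figure D1:**
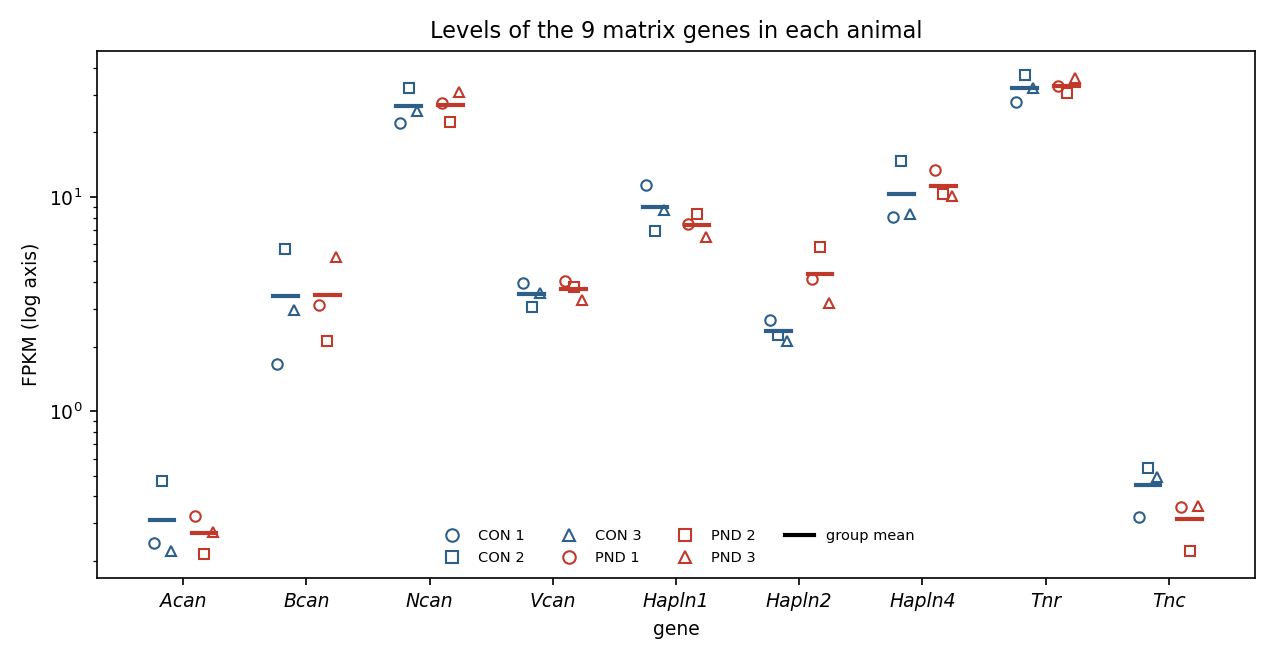
FPKM of the 9 genes on a log axis, with 1 point for each of the 6 samples and a bar at the mean of each group. Tnr and Ncan lie highest, Acan and Tnc lie below 1 FPKM, and the PND and CON points separate for Hapln2 (3.20 to 5.83 FPKM against 2.14 to 2.67 FPKM).

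The levels of the 9 genes spanned a wide range. By the mean over the 6 samples, the order was Tnr at 32.8 FPKM, Ncan at 26.7 FPKM, Hapln4 at 10.8 FPKM, Hapln1 at 8.2 FPKM, Vcan at 3.62 FPKM, Bcan at 3.47 FPKM, Hapln2 at 3.37 FPKM, Tnc at 0.382 FPKM and Acan at 0.291 FPKM. Tnr was above Ncan in each of the 6 samples. Hapln4 and Hapln1 changed places between samples, and so did Vcan, Bcan and Hapln2, so neighbours within those groups did not differ beyond their spread. Tnc was above Acan in each of the 6 samples, though their sample ranges overlapped. Together the 9 genes summed to 78.0 to 103.2 FPKM, which was 0.0346% to 0.0473% of all FPKM of a sample, and Tnr and Ncan made up 63.3% to 69.7% of that sum.

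Ncan encodes neurocan, a lectican secreted into the loose matrix of the brain. Ncan was measured at 27.5, 22.3 and 30.8 FPKM in PND replicates 1 to 3 and at 22.2, 32.3 and 25.1 FPKM in CON replicates 1 to 3. The highest and the lowest sample were both CON, and the PND values lay between them. The means were 26.9 ± 4.25 FPKM (SD, n = 3) in PND and 26.5 ± 5.20 FPKM (SD, n = 3) in CON. The log2 fold change was 0.02 with a standard error of 0.18 and an interval of -0.39 to 0.44, which on a linear scale spans 0.761 to 1.36. Ncan held 77.7% to 79.1% of the summed lectican FPKM in the 6 samples, a share that varied little while the sum itself ranged from 28.0 to 41.6 FPKM.

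Vcan encodes versican, a lectican of the diffuse matrix and of nodes of Ranvier. Vcan was measured at 4.03, 3.79 and 3.32 FPKM in PND and at 3.96, 3.08 and 3.55 FPKM in CON. The groups overlapped, with CON replicate 2 lowest. PND over CON, this was a log2 fold change of 0.07 with a standard error of 0.17 and an interval of -0.32 to 0.47. Of the 9 genes Vcan varied least, by 1.31-fold between its lowest and highest sample.

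Bcan encodes brevican, a lectican that is abundant around synapses and in nets of the adult brain. Bcan was measured at 3.13, 2.12 and 5.23 FPKM in PND and at 1.66, 5.73 and 2.96 FPKM in CON. It varied most of the 9, by 3.45-fold, and both groups held low and high samples. For Bcan the log2 fold change was 0.09 with a standard error of 0.48 and an interval of -1.03 to 1.22. Its within-group standard deviation was 0.76 on the log2 scale, higher than in 94.3% of the 5626 genes of like level, whose median was 0.27.

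Acan encodes aggrecan, the lectican most closely tied to perineuronal nets. Acan was measured at 0.325, 0.216 and 0.273 FPKM in PND and at 0.242, 0.471 and 0.222 FPKM in CON. These levels rest on an estimated 11.9 to 28.6 fragments per sample, and the highest value was CON replicate 2. The log2 fold change was -0.11 with a standard error of 0.38 and an interval of -0.99 to 0.77. Parvalbumin interneurons are the main cells that carry nets. The 10 genes listed as their markers summed to 202 to 231 FPKM in PND and 174 to 231 FPKM in CON. Some genes of this list are not limited to these cells, and it shares a gene with the striatal markers. Of the 10, 0 had an unadjusted p below 0.05 in either direction in limma, beside 3.13% of all genes tested. In tissue RNA, fewer cells of a type and less RNA per cell cannot be told apart.

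The link proteins are small secreted proteins that bind hyaluronan and a lectican at once. Hapln1, the link protein best known from cartilage and also a part of nets, was measured at 7.47, 8.28 and 6.47 FPKM in PND and at 11.4, 6.97 and 8.66 FPKM in CON. CON replicates 1 and 3 lay above all PND samples, and CON replicate 2 lay among them. Its log2 fold change was -0.26 with a standard error of 0.20 and an interval of -0.73 to 0.21, and it was -0.08 without CON replicate 1 and -0.42 without CON replicate 2.

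Hapln4, which is found in nets of the brainstem and cerebellum and binds brevican there, was measured at 13.3, 10.3 and 10.1 FPKM in PND and at 8.06, 14.7 and 8.32 FPKM in CON. The PND samples lay above 2 of the CON samples and below CON replicate 2. Its log2 fold change was 0.16 with a standard error of 0.25 and an interval of -0.42 to 0.75. Without CON replicate 2 it was 0.44 with an unadjusted p of 0.0334 in limma. It was 0.014 without CON replicate 1, 0.036 without CON replicate 3, 0.035 without PND replicate 1 and 0.060 with the GC correction, so both the size and the call depended on single samples. CON replicate 2 was also the sample with the highest sum of excitatory markers and the lowest sum of striatal markers, and the part of that in the Hapln4 value was not tested.

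Hapln2, also called Bral1, is the link protein of the matrix at nodes of Ranvier. Hapln2 was measured at 4.13, 5.83 and 3.20 FPKM in PND and at 2.67, 2.27 and 2.14 FPKM in CON. All 3 PND samples lay above all 3 CON samples. The means were 4.39 ± 1.33 FPKM (SD, n = 3) in PND and 2.36 ± 0.280 FPKM (SD, n = 3) in CON, and the spread was wider in PND. The log2 fold change was 0.83 with a standard error of 0.24 and an interval of 0.27 to 1.40. The values rest on an estimated 86.7, 109.0 and 71.2 fragments in PND and 47.4, 43.8 and 36.4 fragments in CON. Hapln2 held 16.6%, 23.9% and 16.2% of the summed link protein FPKM in PND and 12.1%, 9.49% and 11.2% in CON. After a correction for the GC content of transcripts the log2 fold change was 0.73 with an interval of -0.22 to 1.67 and an unadjusted p of 0.114 in limma, and the groups overlapped.

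The promoters of Hapln2 and Bcan are shown because the genes are neighbours on chromosome 3, read in the same direction, and only Hapln2 of the 9 genes had an unadjusted p below 0.05. They are the RefSeq windows of 250 bases before to 50 bases after the gene start on GRCm38.p6, which were found for 8 of the 9 genes, at chr3:88027462-88027761 and chr3:88000307-88000606, both on the minus strand and written 5′ to 3′. Capitals mark the searched motifs found on either strand, which were the SOX-type motif ACAATG, the E-box CAGCTG, the GC box GGGCGG and the TATA box TATAAA, with no overlap between those found.
Hapln2: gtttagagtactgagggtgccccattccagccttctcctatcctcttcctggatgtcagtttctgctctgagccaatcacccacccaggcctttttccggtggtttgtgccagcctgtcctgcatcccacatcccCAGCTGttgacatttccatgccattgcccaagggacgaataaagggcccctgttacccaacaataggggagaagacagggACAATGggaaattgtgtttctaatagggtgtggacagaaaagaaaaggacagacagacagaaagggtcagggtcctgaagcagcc
Bcan: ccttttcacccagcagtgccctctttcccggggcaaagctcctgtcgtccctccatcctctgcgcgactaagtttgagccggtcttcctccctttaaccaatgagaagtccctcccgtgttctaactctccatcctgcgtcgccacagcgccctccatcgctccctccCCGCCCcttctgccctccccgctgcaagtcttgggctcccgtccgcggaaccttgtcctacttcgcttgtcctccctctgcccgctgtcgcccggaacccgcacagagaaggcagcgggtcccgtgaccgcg
The Hapln2 window had a GC content of 52.0%, 2 CpG, 1 E-box and 1 SOX-type motif. The Bcan window had a GC content of 64.0%, 24 CpG and 1 GC box, here in its reverse complement. Over 32851 promoter windows the medians were 52.7% GC and 7 CpG, and ACAATG was found in 12.6%, CAGCTG in 16.3%, GGGCGG in 35.7% and TATAAA in 13.6%. A match is a description of the letters and no measure of binding.

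**Figure D2:**
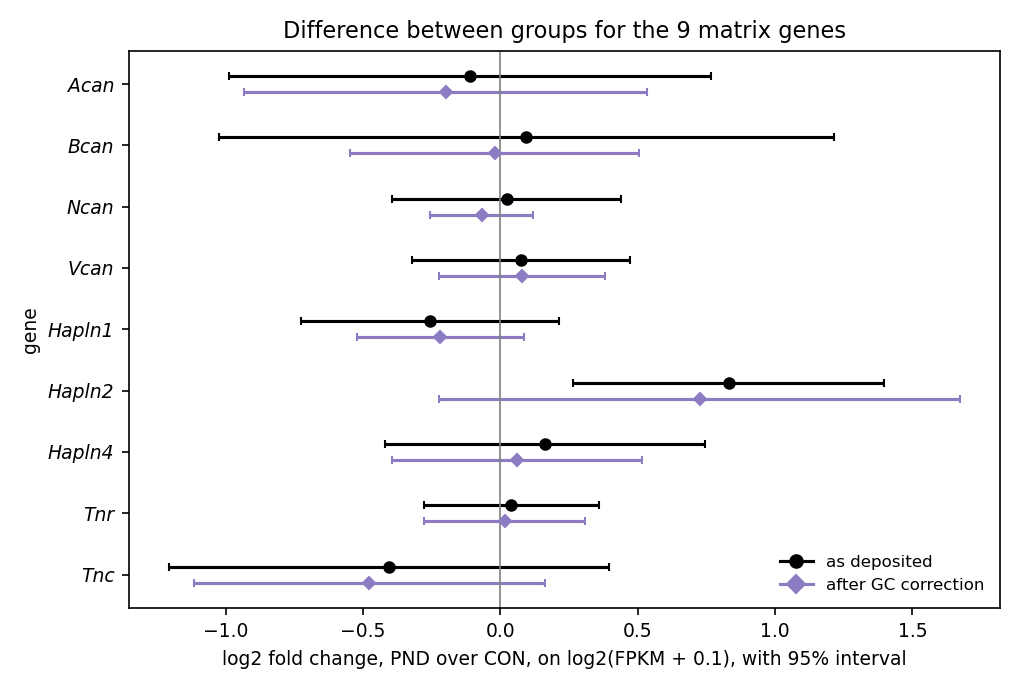
Log2 fold change of PND over CON for the 9 genes on log2(FPKM + 0.1), with points for the estimate and bars for the 95% confidence interval from limma, in black as deposited and in purple after the GC correction. The black interval of Hapln2 (0.27 to 1.40) lies above 0, its purple interval (-0.22 to 1.67) crosses 0, and those of the other 8 genes cross 0.

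Because Hapln2 in the brain comes mainly from oligodendrocytes, its values were set beside 10 markers of mature oligodendrocytes. The summed level of these markers was 329 to 409 FPKM in PND and 381 to 417 FPKM in CON. Of the 10 markers, 0 were higher and 1 was lower in PND at an unadjusted p below 0.05 in limma. Among all genes tested, 1.73% were higher and 1.4% were lower. The median log2 fold change of the markers was -0.16, with 3 of 10 above 0. The marker that was lower was Opalin, a membrane protein of myelinating oligodendrocytes, at 4.55, 3.23 and 2.38 FPKM in PND and 4.14, 7.08 and 6.35 FPKM in CON, with a log2 fold change of -0.78, a standard error of 0.29 and an unadjusted p of 0.0291, a call that was lost without PND replicate 2 or 3 or CON replicate 2 or 3. As deviations from each gene's own mean on the log2 scale, Hapln2 stood at 0.37, 0.86 and 0.02 in PND and at -0.24, -0.46 and -0.55 in CON. The mean deviation of the 10 markers was 0.00, -0.12 and -0.16 in PND and -0.18, 0.29 and 0.17 in CON. The difference between Hapln2 and the markers, a measure chosen after the values were seen, was 0.37, 0.98 and 0.17 in PND and -0.05, -0.76 and -0.71 in CON.

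**Figure D3:**
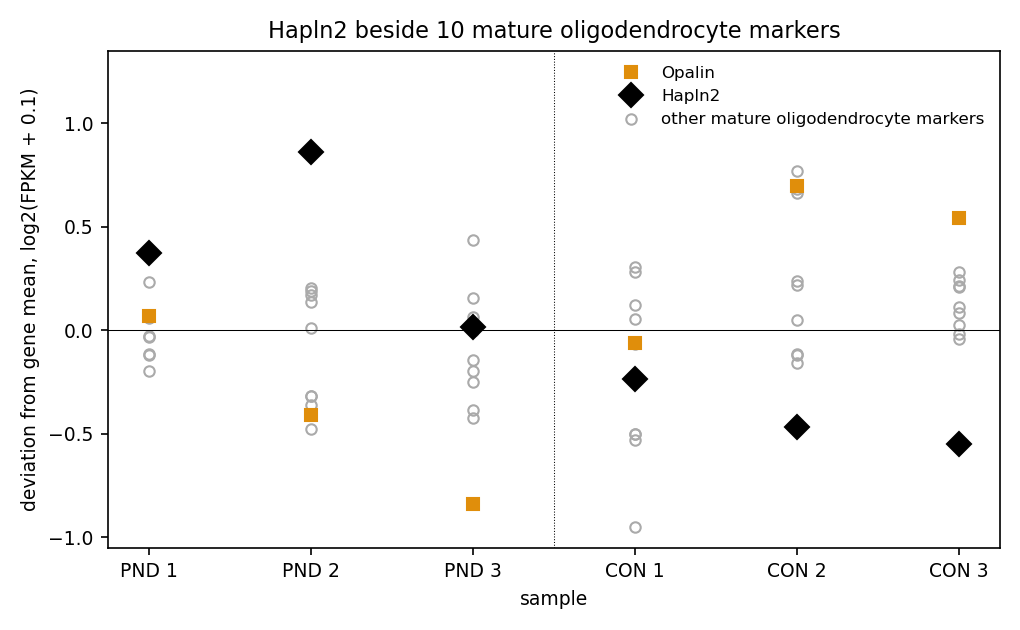
Deviation from the mean of the 6 samples on the log2 scale, in each sample, for Hapln2 (black), Opalin (orange) and the other mature oligodendrocyte markers (grey circles). Hapln2 lies at 0.02 to 0.86 in PND and -0.55 to -0.24 in CON, and the grey points spread on both sides of 0 in both groups.

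The tenascins are large glycoproteins with many arms. Tnr, which crosslinks lecticans in nets and comes largely from oligodendrocyte lineage cells and some interneurons, was measured at 32.8, 30.6 and 35.9 FPKM in PND and at 27.6, 37.2 and 32.4 FPKM in CON. The lowest and the highest sample were both CON. Between the groups Tnr had a log2 fold change of 0.04 with a standard error of 0.14 and an interval of -0.28 to 0.36, the narrowest of the 9. Tnc, a tenascin of development and of injured tissue that is low in most adult cortex, was measured at 0.356, 0.223 and 0.363 FPKM in PND and at 0.320, 0.542 and 0.491 FPKM in CON. The groups overlapped in 1 CON sample, and the values rest on an estimated 13.7 to 34.3 fragments. Between the groups Tnc had a log2 fold change of -0.41 with a standard error of 0.34 and an interval of -1.21 to 0.39, and leaving out a sample gave -0.59 to -0.24. The ratio of Tnr to Tnc lay between 66.0 and 137 in the 6 samples. An antisense gene overlaps 443 exon bases of Tnr and another gene on the opposite strand overlaps 176 exon bases of Tnc, and the use of strand in the counting is not given in the sources used here. The other 7 genes had no exon overlap.

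The levels of most of these genes varied between samples with the GC content of their transcripts. CON replicate 2 was the highest sample for 6 of the 9 genes and CON replicate 1 the lowest for 4. From CON replicate 1 to CON replicate 2 the log2 difference was -0.70 for Hapln1, with a transcript GC content of 39.8%, and -0.35 for Vcan at 43.7%. It was 0.43 for Tnr at 47.7%, 0.61 for Tnc at 52.5%, 0.74 for Acan at 54.8% and 0.54 for Ncan at 55.1%. It was 0.85 for Hapln4 at 57.0% and 1.73 for Bcan at 60.7%. The median of all genes within 1 percentage point of the same GC content ran from -0.29 at the GC content of Hapln1 to 1.17 at that of Bcan. Hapln2, with 57.4% GC, had a difference of -0.23, whereas the 644 genes of like GC content had a median of 0.89. The sign of the difference was thus that of genes of like GC content for 8 of the 9 genes, though for Tnr those genes had a median of only 0.02.

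**Figure D4:**
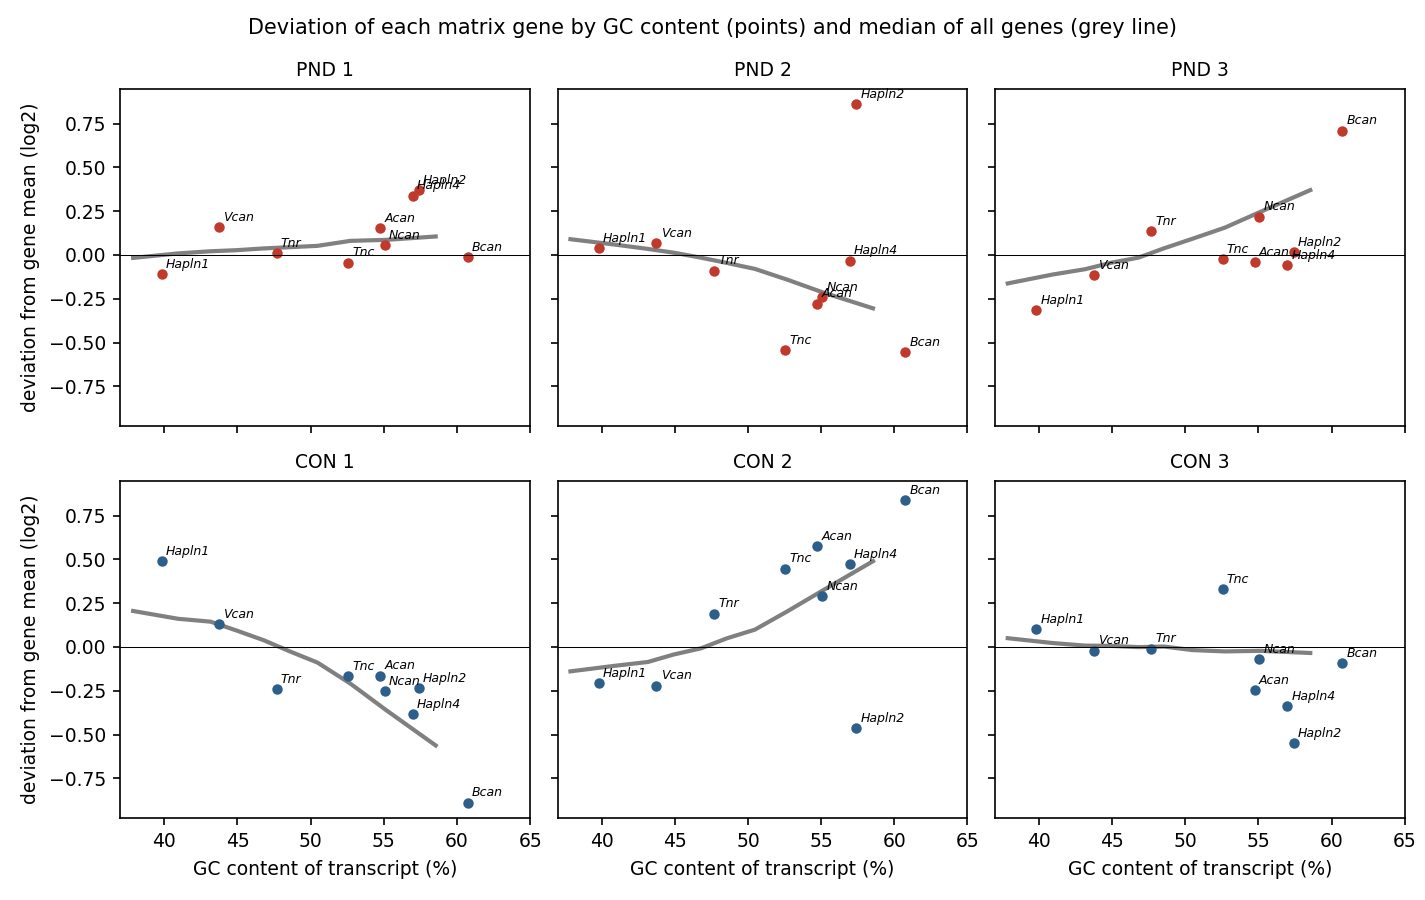
Deviation of each gene from its mean over the 6 samples on the log2 scale against the GC content of its longest transcript in percent, with a panel for each sample, points for the 9 genes and a grey line for the median of all genes by GC content. Acan, Ncan, Hapln4 and Bcan lie above 0 in CON replicate 2 and below 0 in CON replicate 1, whereas Hapln2 lies at -0.46 in CON replicate 2.

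When a smooth curve of GC content was removed from each sample, the within-group standard deviation on the log2 scale became smaller for 8 of the 9 genes. It went from 0.76 to 0.31 for Bcan, from 0.26 to 0.053 for Ncan, from 0.31 to 0.14 for Tnc and from 0.28 to 0.15 for Hapln1. For Hapln2 it went the other way, from 0.32 to 0.64. With this correction 0 of the 9 genes had an unadjusted p below 0.05 in limma, and the 95% interval of Ncan narrowed to -0.26 to 0.12.

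Each link protein gene lies beside a lectican gene, with no protein-coding gene between them in GENCODE M21 on GRCm38. Hapln1 (ENSMUSG00000021613, chromosome 13, 89539796 to 89611652, plus strand) and Vcan (ENSMUSG00000021614, chromosome 13, 89655312 to 89742509, minus strand) are 43659 bases apart and end toward each other. Hapln4 (ENSMUSG00000007594, chromosome 8, 70083457 to 70090862, plus strand) and Ncan (ENSMUSG00000002341, chromosome 8, 70093085 to 70120873, minus strand) are 2222 bases apart and end toward each other. Hapln2 (ENSMUSG00000004894, chromosome 3, 88021750 to 88027583, minus strand) and Bcan (ENSMUSG00000004892, chromosome 3, 87987531 to 88000230, minus strand) are 21519 bases apart in the same direction. Acan (ENSMUSG00000030607) lies on chromosome 7 from 79053483 to 79115099 on the plus strand, with Hapln3 only 2 bases beyond its end. Tnr (ENSMUSG00000015829) lies on chromosome 1 from 159523769 to 159931729 on the plus strand, and Tnc (ENSMUSG00000028364) on chromosome 4 from 63959785 to 64047015 on the minus strand.

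The log2 ratio of link protein to neighbouring lectican was compared for the 3 pairs, a comparison chosen after the values were seen. Hapln1 over Vcan was 0.89, 1.13 and 0.96 in PND and 1.52, 1.18 and 1.29 in CON. All 3 PND values lay below all 3 CON values, and the difference of the means was -0.33, with an exact permutation p of 0.10, two-sided, which is the smallest that 3 samples against 3 can give, and 0.30 after adjustment over the 3 pairs. After the GC correction the difference was -0.30 and the groups still did not overlap. Hapln2 over Bcan was 0.40, 1.46 and -0.71 in PND and 0.69, -1.34 and -0.47 in CON, with a difference of 0.76 and an exact permutation p of 0.50. Leaving out PND replicate 2 or CON replicate 2 lowered that difference to 0.22 or 0.27, and leaving out PND replicate 3 or CON replicate 1 raised it to 1.30 or 1.29. Hapln4 over Ncan differed by 0.14 with an exact permutation p of 0.60, and leaving out a sample gave 0.035 to 0.32, the lowest without PND replicate 1 and the highest without PND replicate 3.

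The other genes of the matrix were read from 6 lists of 91 genes, of which 80 passed the filter. At an unadjusted p below 0.05 in limma, 4 were higher in PND and 0 were lower, beside 1.73% higher and 1.4% lower among all genes tested. The median log2 fold change was 0.07 and 62.5% lay above 0, beside 0.01 and 52.4% for all genes. Among 18 other net and matrix components 1 was higher, Sparc, a matricellular protein that binds collagen. Sparc was measured at 23.5, 21.9 and 24.5 FPKM in PND and at 14.0, 14.8 and 17.3 FPKM in CON, without overlap, and its log2 fold change was 0.60 with a standard error of 0.12, and an unadjusted p of 0.00142 (0.787 after adjustment). The most abundant genes of that list were Sparcl1 at a mean of 306 FPKM and Nptx1 at 59.9 FPKM.

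Among 18 matrix proteases and inhibitors tested, 3 were higher in PND and 0 were lower, beside 1.73% and 1.4% of all genes. The groups did not overlap in 4 of the 18, beside 7.66% of all genes. Timp4, an inhibitor of matrix metalloproteinases, was measured at 2.36, 2.15 and 2.38 FPKM in PND and at 1.50, 1.64 and 1.54 FPKM in CON, with a log2 fold change of 0.53, a standard error of 0.18 and an unadjusted p of 0.0191. Plat, the tissue plasminogen activator, was at 7.82, 6.35 and 9.93 FPKM in PND and at 5.06, 5.96 and 6.10 FPKM in CON, with a log2 fold change of 0.47 and an unadjusted p of 0.0417. Ctsb, the lysosomal protease cathepsin B, was at 52.1, 46.3 and 57.2 FPKM in PND and at 36.2, 48.2 and 37.4 FPKM in CON, with a log2 fold change of 0.36 and an unadjusted p of 0.0391. Timp4 and Plat did not overlap between groups and Ctsb did, and the adjusted p of each was 0.9999. The other genes without overlap, named after their values were seen, were the proteases Adamts5 (0.316 to 0.489 FPKM in PND and 0.501 to 0.825 FPKM in CON) and Adamts9 (0.581 to 0.705 FPKM in PND and 0.371 to 0.518 FPKM in CON), and neither had an unadjusted p below 0.05. Ctsb and Timp2, at a mean of 33.1 FPKM, were the most abundant genes of the list. The call of Timp4 was lost without PND replicate 1 or 3, where limma gave unadjusted p-values of 0.0644 and 0.0627. That of Plat was lost when any sample but PND replicate 2 was left out, and its log2 fold change was 0.30 without PND replicate 3. That of Ctsb was lost when any sample but PND replicate 2 or CON replicate 2 was left out, and its log2 fold change was 0.28 without CON replicate 1.

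In the other lists no gene had an unadjusted p below 0.05 in limma, beside 3.13% of all genes tested. These were 14 matrix receptors and net-binding proteins, led by Nrcam at a mean of 84.3 FPKM and Cntn1 at 37.7 FPKM, 9 genes of hyaluronan synthesis and breakdown, led by Ugdh at 3.89 FPKM and Cemip2 at 3.62 FPKM, and 20 genes of chondroitin sulfate synthesis and sulfation, led by Chsy3 at 14.1 FPKM and Papss1 at 10.2 FPKM. Their median log2 fold changes were 0.08, -0.04 and 0.07. In these lists the groups did not overlap for 1 gene, beside 7.66% of all genes tested. It was Ptprd, a receptor-type tyrosine phosphatase named after its values were seen. Ptprd was at 19.7 to 23.8 FPKM in PND and 24.5 to 26.3 FPKM in CON, with a log2 fold change of -0.21. Of the 3 family members outside the 9, Tnxb alone passed the filter, at a mean of 0.128 FPKM.

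**Figure D5:**
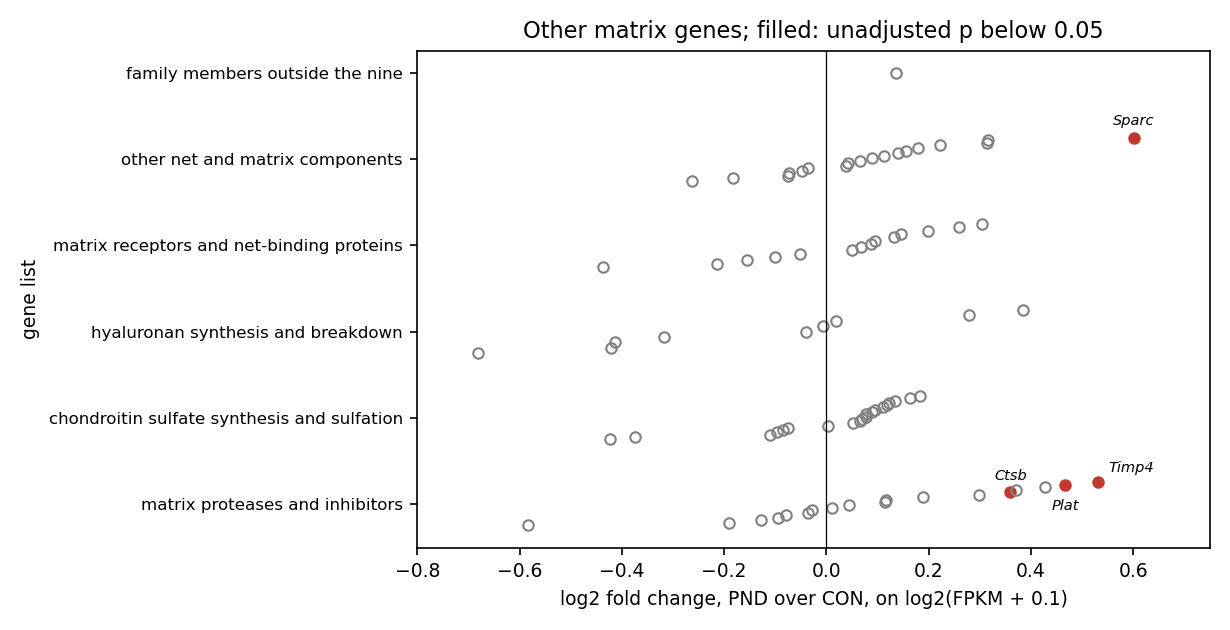
Log2 fold change of PND over CON on log2(FPKM + 0.1) for each gene of the 6 other matrix lists, with filled points for an unadjusted p below 0.05. The 4 filled points, Sparc, Timp4, Plat and Ctsb, all lie above 0.

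Markers of other cells moved as follows beside these results. Among all genes tested, 1.73% were higher and 1.4% were lower in PND at an unadjusted p below 0.05 in limma. Among 9 astrocyte markers, Gfap, the filament protein of reactive astrocytes, was higher in PND at 21.8 ± 3.65 FPKM against 13.6 ± 1.10 FPKM, with a log2 fold change of 0.66 and an unadjusted p of 0.00294 in limma. The water channel Aqp4 was lower at 24.0 ± 2.14 FPKM against 30.8 ± 3.85 FPKM, with a log2 fold change of -0.36 and an unadjusted p of 0.0275 in limma, a call that was lost without PND replicate 2 or CON replicate 1 or 3. Over the 9 astrocyte markers the median log2 fold change was 0.03, and 5 lay above 0. The astrocyte sum was 365 to 496 FPKM in PND and 317 to 617 FPKM in CON, and its part in the Sparc and Timp4 results was not tested. P2ry12, a receptor of resting microglia, was lower at 5.49 ± 1.36 FPKM against 9.27 ± 1.50 FPKM (log2 fold change -0.76, unadjusted p = 0.00767 in limma). Clic6, a marker of choroid plexus, was higher at 1.85 ± 0.319 FPKM against 1.05 ± 0.399 FPKM (log2 fold change 0.80, unadjusted p = 0.0319 in limma), a call that was lost when PND replicate 1 or 3 or CON replicate 1 or 2 was left out. The summed level was 40.4 to 47.3 FPKM in PND and 44.7 to 50.2 FPKM in CON for 7 microglia markers, of which 1 was lower and 0 were higher at an unadjusted p below 0.05 in limma, 4 lay above 0 and the median log2 fold change was 0.04. The sum was 31.3 to 37.5 FPKM against 32.6 to 37.3 FPKM for 8 choroid plexus markers. Of these 8, 3 passed the filter, and 1 gene with a mean of 32.2 FPKM made up most of the sum. The median log2 fold change of the 3 was 0.34, with 2 above 0. Of 8 oligodendrocyte precursor markers and 8 endothelial and fibroblast markers, 0 had an unadjusted p below 0.05 in limma.

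The genes whose pattern over the 6 samples was most like that of a member were found by the smallest root mean square difference of centred log2 values among 12322 or 12323 genes that averaged 1 FPKM or more. They were Cnnm1 for Ncan with a difference of 0.0152, Cltc for Vcan with 0.0154, Phf1 for Bcan with 0.0824 and Cdc25b for Acan with 0.0436. They were Gm42448 for Hapln1 with 0.0477, Afap1l1 for Hapln4 with 0.0649, Prcc for Tnr with 0.0151 and Ccdc57 for Tnc with 0.0739. Hapln2 had the least close match, Zfp583 with 0.150.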

How the data were processed

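Prefrontal cortex RNA of 3 PND and 3 CON mice was analysed. Groups came from the treatment labels and replicate numbers from the titles. Per the study's methods, the authors depleted ribosomal RNA, filtered reads with Seqtk, aligned them with HISAT2, counted fragments with StringTie, scaled by TMM and deposited FPKM for each gene. The submitters' processing notes also name Bowtie 0.12.2, mm8 and mm9 with no role. The annotation is not given in the sources used here. No label gives a batch.

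From the deposited FPKM, limma 3.58.1 in R 4.3.3 (lmFit, eBayes with trend) was run on log2(FPKM + 0.1), a scale that understates the change of low genes, over the 18185 of 21006 genes that averaged 0.1 FPKM or more. Tests were two-sided and p-values were adjusted by Benjamini-Hochberg over all genes. GENCODE M21 (GRCm38), which matched 20877 genes, gave positions, transcript lengths and GC content. Depth was estimated from the steps of low values, of which 41.6% to 44.8% lay within 0.05 of a whole number of fragments, where 10% would without steps. Estimated fragments cover counting error only. GC content was corrected with a natural spline of 4 degrees of freedom. The fit was tested on simulated data. No pair of samples held identical values (0 of 15 pairs).

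Genes named were the 9 members, every gene of the other lists with an unadjusted p below 0.05, the 2 most abundant genes of each matrix list and the closest pattern match of each member; 1 gene that this rule names is not reported here. Outside this rule, Slc17a7 was named for the check of the tissue, and Adamts5, Adamts9 and Ptprd for their groups that do not overlap, all chosen after their values were seen. The members and lists were chosen with earlier results of these data known. Alternatives were the pseudocount, filter, scaling, trend, replicate block, GC correction, voom on estimated fragments and leaving out each sample.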

Additional observations from a re-analysis of the deposited data

How the results depend on the processing

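Hapln2 kept its direction in all 12 alternatives that used all 6 samples and in the 6 that left out a sample. Its log2 fold change was 0.66 to 0.85 in the former and 0.61 to 1.03 in the latter, and its unadjusted p stayed below 0.05 except with the GC correction, at 0.114, and with the GC correction and the replicate block, at 0.134. Its adjusted p was 0.831 or higher in each of them. The count of members with an unadjusted p below 0.05 was 1 and became 0 with the GC correction, with or without the block, and 1 to 2 when a sample was left out. The count of genes past the cut-off of the study was 241, and it became 25 with a pseudocount of 1 and 59 with a minimum mean of 1 FPKM, which tests fewer genes and leaves out Acan and Tnc. Leaving out a sample gave 235 to 388, the highest without CON replicate 2. The cause of the other changes was not tested. The log2 fold change turned to -0.022 for Bcan and -0.069 for Ncan with the GC correction, with or without the block. Leaving out a sample gave -0.26 to 0.15 for Acan, -0.33 to 0.54 for Bcan, -0.10 to 0.17 for Ncan, -0.018 to 0.16 for Vcan and -0.071 to 0.14 for Tnr. It gave -0.42 to -0.08 for Hapln1, 0.014 to 0.44 for Hapln4 and -0.59 to -0.24 for Tnc, and Tnc was -0.14 with a pseudocount of 1. The median over the members was -0.02 to 0.07 in the alternatives with all samples and -0.08 to 0.15 when a sample was left out. The log2 ratio of Hapln1 over Vcan, compared after the data were seen, differed by -0.41 to -0.24 when a sample was left out, Hapln2 over Bcan by 0.22 to 1.30 and Hapln4 over Ncan by 0.035 to 0.32.

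The replicate numbers were shared between groups. Samples of the same number did not deviate together (r = -0.05, -0.45 and 0.03 across 12387 genes, which are not independent replicates). Samples of unlike number had r from -0.42 (PND replicate 3 with CON replicate 1) to 0.43 (PND replicate 2 with CON replicate 1). These correlations cannot tell whether samples of the same number shared a batch, which no label gives. With the replicate block 226 genes passed the cut-off and Hapln2 had an unadjusted p of 0.017. Plat, Timp4, Ctsb and Opalin had unadjusted p of 0.058, 0.067, 0.088 and 0.064 with the block, and Opalin had 0.057 with the GC correction and the block. Without the intensity trend Plat, Ctsb and Aqp4 had 0.067, 0.094 and 0.074, and Aqp4 had 0.059 with median centring. Acan and Tnc had the fewest fragments of the 9 genes, an estimated 11.9 to 34.3 per sample.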
